A study of Mus musculus with 4 samples.

Results

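The cytosolic ribosomal protein genes are described here in mouse hearts under pressure overload, with and without the muscle ubiquitin ligase subunit MAFbx. Members were found by symbol. A gene was taken when at least 1 probe set named it alone and its symbol was Rpl or Rps followed by p0 to p2, by a, or by a number with an optional final a, x or l. The rule found 59 of the 19938 genes named on the array, 37 of the large subunit and 22 of the small subunit. Of these, 58 were among the 14914 genes bright enough to be tested. The rule used no measured difference between genotypes, but the family was chosen with earlier results of these data known.

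Each array held total RNA from 1 heart, 1 week after TAC (transverse aortic constriction), an operation that narrows the aorta so that the left ventricle pumps against a raised pressure. There was 1 wild type TAC heart (wild type 1) and there were 3 MAFbx knockout TAC hearts (knockout 1, 2 and 3), so every heart had been loaded and no unloaded heart entered the comparison. The comparison asks how loss of MAFbx, encoded by Fbxo32, alters expression in the loaded heart. The labels give no strain, age or design of the knockout allele, and they number the hearts within a genotype without saying that each is a separate animal, so p-values measure the spread between these samples.

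Ribosomal proteins assemble with ribosomal RNA into a small subunit, which reads the messenger RNA, and a large subunit, which joins amino acids. The genes are transcribed at a high and coordinated rate, and most of their messenger RNAs begin with a C followed by a pyrimidine run, the 5′ terminal oligopyrimidine (TOP) motif, through which mTORC1 and LARP1 control their translation. Growth of the heart muscle under load is known to go with increased ribosome production. Rpl3l, a paralog of Rpl3 restricted to heart and skeletal muscle, takes the place of Rpl3 in part of the ribosomes of those tissues.

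The start regions of a few members are printed to show a feature that the symbol rule did not use, with members that have it at the start, further upstream or not at all. Each line gives 30 bases before and the first 20 bases from a RefSeq transcription start (GRCm38.p6), 5′ to 3′ on the strand of the gene. A run is a C followed by at least 5 further C or T. Capitals mark only the longest run that begins from 25 bases upstream to the first 10 bases.
Rps6 (chr4:86857348-86857397, minus strand): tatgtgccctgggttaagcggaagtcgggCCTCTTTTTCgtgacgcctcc
Rps18 (chr17:33955646-33955695, minus strand): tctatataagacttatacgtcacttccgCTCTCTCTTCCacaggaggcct
Rplp2 (chr7:141447621-141447670, plus strand): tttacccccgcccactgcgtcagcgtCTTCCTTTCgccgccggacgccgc
Rpl38 (chr11:114668550-114668599, plus strand): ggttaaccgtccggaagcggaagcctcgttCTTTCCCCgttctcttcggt
Rpl12 (chr2:32961682-32961731, plus strand): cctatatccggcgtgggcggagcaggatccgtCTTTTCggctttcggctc
Rpl5 (chr5:107900498-107900547, plus strand): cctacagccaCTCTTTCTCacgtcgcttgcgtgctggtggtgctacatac
Rpl4 (chr9:64173357-64173406, plus strand): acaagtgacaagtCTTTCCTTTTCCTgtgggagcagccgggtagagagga
Rpl10 (chrX:74270786-74270835, plus strand): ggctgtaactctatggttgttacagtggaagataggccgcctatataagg
Rpl3l, upstream start (chr17:24727796-24727845, plus strand): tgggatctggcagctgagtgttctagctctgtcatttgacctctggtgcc
Rpl3l, downstream start (chr17:24732655-24732704, plus strand): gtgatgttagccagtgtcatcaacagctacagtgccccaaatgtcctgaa

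In Rps6, Rps18, Rplp2, Rpl38 and Rpl12 the run began within 5 bases of the annotated start, in Rpl5 and Rpl4 it lay further upstream, and at the starts of Rpl10 and Rpl3l, as of many other members, none was found. RefSeq promoter windows were matched for 47 of the 59 members. A C within 5 bases of a start and followed by at least 5 further C or T was found in 16 of them (34%). It was found in 11% of 27025 genes with a window. Such a C could also lie inside a run that began further upstream. When this C could lie anywhere from 25 bases upstream to the first 10 bases, it was found in 28 of the 47 members (59.6%) and in 33% of all genes. The letters CCGGAAG, which the ETS family of factors is known to bind, were searched on both strands of the whole 300-base window and found in 18 of the 47 members (38.3%), against 9.93% of all genes. TATAAA, searched likewise, was found in 6 members (12.8%) and in 15.7% of all genes. These matches describe letters near annotated starts, and no binding was measured.

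In the knockout hearts most ribosomal protein genes read slightly lower than in the wild type heart, and none passed the test. On the log2 scale the median log2 fold change of the 58 tested members (knockout mean minus wild type) was -0.195, against 0.003 for all genes tested. All 3 knockout arrays lay below wild type 1 for 39 members, or 67.2%, while 24.6% of all genes tested did so. None of the 58 had all 3 knockout arrays above it, against 23.9% of all genes. By limma, with Benjamini-Hochberg adjustment over all genes tested, 0 members passed an adjusted p of 0.05, and 1 gene on the whole array did (0.00671%). At an unadjusted p of 0.05, 1 member was lower (Rpl30) and 0 were higher, where the shares over all genes were 4.05% lower and 1.68% higher.

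The spread in these tests comes from the 3 knockout arrays, and wild type 1 is assumed to vary like them. With 1 array against 3, the smallest p of an exact permutation test is 0.25. The whole family rests on the same wild type array, so its members are not independent of each other.

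**Figure D1:**
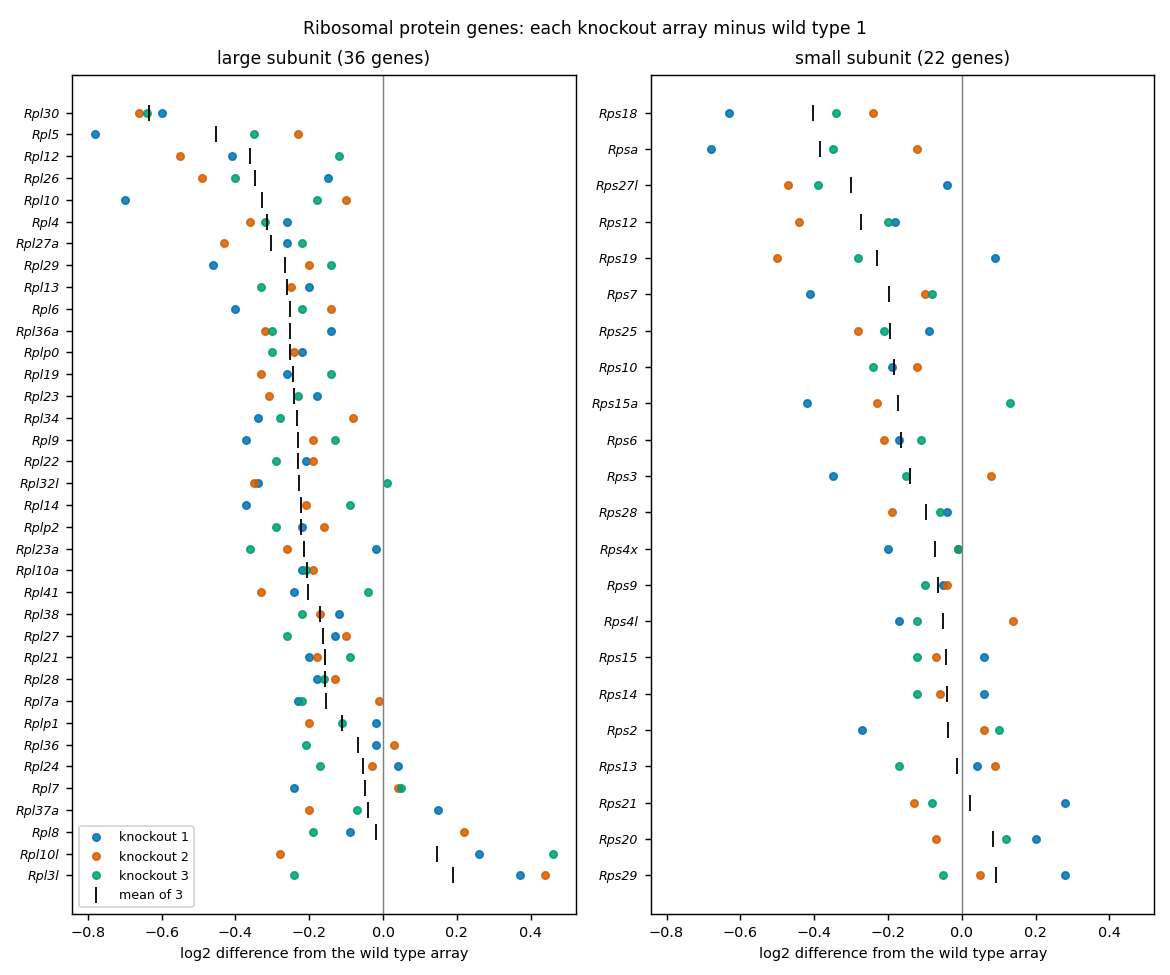
Log2 level on each knockout array minus the level on wild type 1 (horizontal axis) for the 36 large subunit and 22 small subunit genes tested, sorted by the mean of the 3 differences (black bars). Points left of the line read below wild type 1, as all 3 do for 28 large and 11 small subunit genes. Rpl3l is the lowest row of the large subunit.

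Taken one by one, the 3 knockout arrays gave similar family medians, before any regard to how bright genes shifted on each array. The median difference from wild type 1 was -0.195 on knockout 1, -0.19 on knockout 2 and -0.175 on knockout 3. On these arrays 47, 49 and 52 of the 58 members read below wild type 1. Wild type 1 was the lowest of the 4 arrays for 0 members, although it was the lowest for 25.6% of all genes tested. The lowest array was knockout 1 for 20 members, knockout 2 for 21 and knockout 3 for 17.

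Ribosomal protein genes are bright on these arrays, with a median 4-array level of 10.71 (log2) over the tested members. The brightest 25% of all genes tested had a median log2 fold change of 0.01, and 26.6% of it had all knockout arrays below wild type 1. Its median difference from wild type 1 was 0.03 on knockout 1, 0.05 on knockout 2 and -0.06 on knockout 3. Bright genes as a whole thus read lower on knockout 3, and beside them the family difference was smaller there than on knockout 1 and 2. Of the 39 members below on all 3 arrays, 8 had a knockout array within 0.05 of wild type 1 (Rpl7a, Rpl23a, Rpl41, Rplp1, Rps4x, Rps9, Rps27l and Rps28).

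**Figure D2:**
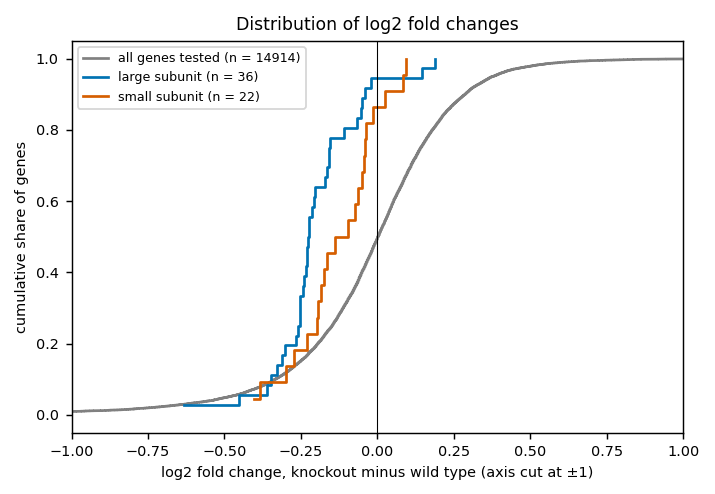
Cumulative share of genes (vertical axis) by log2 fold change, knockout minus wild type (horizontal axis, cut at -1 and 1), for all 14914 genes tested, the 36 large subunit genes and the 22 small subunit genes. Both subunit curves lie left of the curve of all genes, with medians of -0.225 and -0.118 against 0.003.

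Among the tested members, large subunit genes read further below wild type 1 than small subunit genes. The median log2 fold change was -0.225 (interquartile range -0.26 to -0.16) for 36 large subunit genes and -0.118 (-0.20 to -0.04) for 22 small subunit genes, so the ranges overlap. The difference between the medians was -0.09 on knockout 1, -0.09 on knockout 2 and -0.095 on knockout 3. All knockout arrays lay below wild type 1 for 28 large subunit genes (77.8%) and for 11 small subunit genes (50%). No test was made of this difference, since 1 wild type array carries it. After renewed quantile normalization of the deposited values the small subunit median was -0.054 and the large subunit median -0.177. Genes seen only in sets with several symbols are not in these values. Their medians were -0.343 (Rps26), -0.32 (Rps16), -0.315 (Rps27), -0.29 (Rps23) and -0.15 (Rps24). For the large subunit they were -0.443 (Rpl3), -0.308 (Rpl15), -0.305 (Rpl11), -0.243 (Rpl17), -0.23 (Rpl32) and -0.22 (Rpl31). Smaller in size were Rpl39 (-0.162), Rpl35 (-0.15), Rpl13a (-0.098), Rpl37 (-0.065) and Rpl35a (-0.027). Among these genes the large subunit did not read further below.

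The 28 large subunit genes below wild type 1 on all knockout arrays were Rpl4, Rpl5, Rpl6, Rpl7a, Rpl9, Rpl10, Rpl10a, Rpl12, Rpl13, Rpl14, Rpl19, Rpl21, Rpl22, Rpl23, Rpl23a, Rpl26, Rpl27, Rpl27a, Rpl28, Rpl29, Rpl30, Rpl34, Rpl36a, Rpl38, Rpl41, Rplp0, Rplp1 and Rplp2. The other 8 tested large subunit genes, Rpl3l, Rpl7, Rpl8, Rpl10l, Rpl24, Rpl32l, Rpl36 and Rpl37a, overlapped between genotypes. In the small subunit Rps4x, Rps6, Rps7, Rps9, Rps10, Rps12, Rps18, Rps25, Rps27l, Rps28 and Rpsa lay below on all 3 arrays. Rps2, Rps3, Rps4l, Rps13, Rps14, Rps15, Rps15a, Rps19, Rps20, Rps21 and Rps29 overlapped.

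Of the large subunit core, Rpl30, a small RNA-binding protein, read 6.89 (log2) on wild type 1 and 6.29, 6.23 and 6.25 on knockout 1, 2 and 3. The knockout arrays lay within 0.06 of each other and 0.6 or more below wild type 1, the widest gap between genotypes in the family. The mean over the knockout arrays was 6.26 ± 0.03 (SD, n = 3). This is -0.63 (SE 0.17) as log2 fold change, with an limma unadjusted p of 0.0073 and an adjusted p of 0.547. The 10 probe sets that list Rpl30 together with other symbols, which were not assigned to a gene, read 12.63 to 13.27 and had log2 fold changes of only -0.187 to -0.157. The value of the single-symbol probe set is therefore not matched by the other sets that carry the same symbol.

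Rpl4, which lines the tunnel through which the new peptide leaves, read 11.84 on wild type 1 and 11.58, 11.48 and 11.52 on the knockout arrays. Its log2 fold change was -0.31 (SE 0.17, limma adjusted p = 0.923). The 3 knockout arrays again lay close together, 0.1 apart at most. This was so for 9 members (15.5%), namely Rpl4, Rpl10a, Rpl22, Rpl28, Rpl30, Rpl38, Rplp0, Rps6 and Rps9, and for 9.28% of all genes tested. In all 9 members every knockout array was also below wild type 1. Of all genes tested, 1384 had knockout arrays this close, and 544 of those also had every knockout array below wild type 1.

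Rpl26, which lies near the exit of that tunnel, read 8.46 on wild type 1 and 8.31, 7.97 and 8.06 on the knockout arrays, without overlap. Rpl12, at the base of the stalk, read 5.76 against 5.35, 5.21 and 5.64, also without overlap. With log2 fold changes of -0.35 and -0.36, neither passed the test (limma adjusted p = 0.923 for both). The probe set used for Rpl12 was dim, with a 4-array mean of 5.49. The 8 probe sets that list Rpl12 with other symbols read 6.185 to 11.705 and were not assigned to a gene. Their log2 fold changes ran from -0.493 to -0.127, and all 8 lay below wild type 1 on every knockout array.

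The stalk proteins Rplp0, Rplp1 and Rplp2 recruit the elongation factors to the ribosome. Rplp0 read 10.61 on wild type 1 and 10.39, 10.37 and 10.31 on the knockout arrays, a log2 fold change of -0.25 (SE 0.17). Rplp2 read 7.30 against 7.08, 7.14 and 7.01, with a log2 fold change of -0.22. Rplp1 read 12.12 against 12.10, 11.92 and 12.01, with a log2 fold change of -0.11. All 3 stalk genes were below wild type 1 on every knockout array, with limma adjusted p-values from 0.935 to 0.992.

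Rps6, the small subunit protein that S6 kinase phosphorylates downstream of mTORC1, read 12.53 on wild type 1 and 12.36, 12.32 and 12.42 on the knockout arrays. The log2 fold change of this brightest of its 8 probe sets was -0.16 (SE 0.17, limma adjusted p = 0.965), the smallest in size of the 8, which reached -0.297, and no knockout array reached the wild type level. These arrays measure messenger RNA and say nothing of Rps6 phosphorylation.

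**Figure D3:**
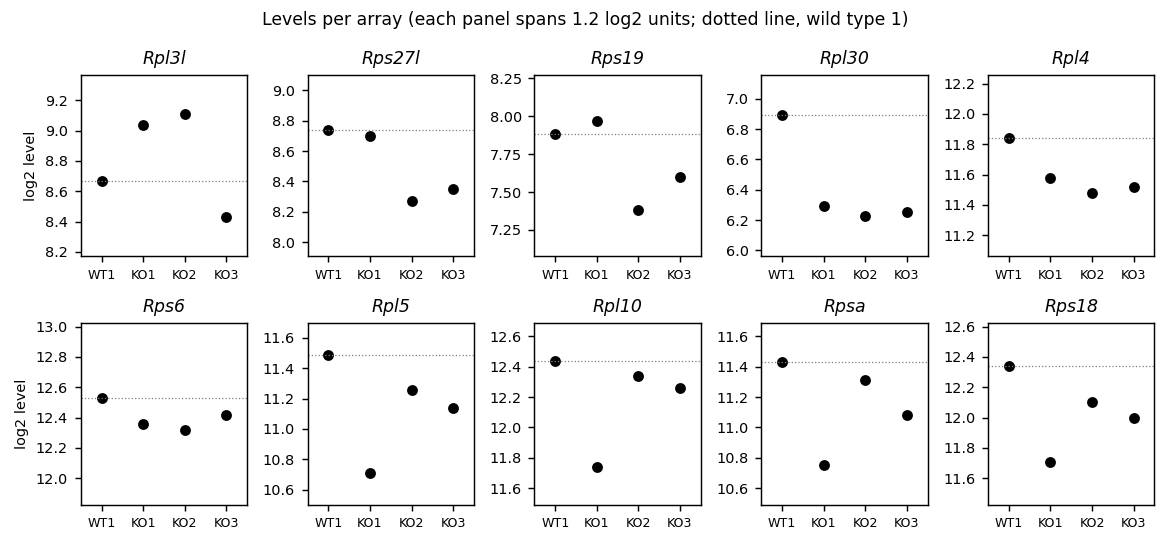
Log2 level (vertical axis, a span of 1.2 in every panel) on the 4 arrays (horizontal axis) for 10 members, each point 1 array and the dotted line the level on wild type 1. Rpl30, Rpl4 and Rps6 read alike on the 3 knockout arrays, Rpl5, Rpl10, Rpsa and Rps18 are lowest on knockout 1, Rps27l and Rps19 are highest among the knockouts on knockout 1, and Rpl3l is split.

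Several of the lowest members owed much of their mean to knockout 1. Rpl5, which with Rpl11 carries the 5S ribosomal RNA into the large subunit, read 11.49 on wild type 1 and 10.71, 11.26 and 11.14 on knockout 1, 2 and 3. Rpl10, which is added late and is needed for the subunits to join, read 12.44 against 11.74, 12.34 and 12.26. Both genes lay below wild type 1 on every knockout array, with the largest difference on knockout 1.

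In the small subunit Rps18, a protein of its head, read 12.34 on wild type 1 and 11.71, 12.10 and 12.00 on the knockout arrays. Rpsa, also known as the laminin receptor, read 11.43 against 10.75, 11.31 and 11.08. The log2 fold changes of Rpl5, Rps18, Rpsa and Rpl10 were -0.45, -0.40, -0.38 and -0.33, each with an limma adjusted p between 0.923 and 0.950. Knockout 1 read below the mean of knockout 2 and 3 by -0.49 for Rpl5, -0.34 for Rps18, -0.445 for Rpsa and -0.56 for Rpl10. For Rpsa this is the brightest of 5 probe sets, and the sets differ. A dimmer set read 9.61, 9.81 and 9.67 on knockout 1, 2 and 3, again lowest on knockout 1. The remaining sets read 9.34, 8.85 and 9.07, then 9.48, 9.34 and 9.37, and 9.96, 10.02 and 9.93. In none of those was knockout 1 the lowest knockout array.

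Knockout 1 lay at least 0.2 below both other knockout arrays for 9 members (15.5%; Rpl5, Rpl7, Rpl10, Rpl29, Rps2, Rps3, Rps7, Rps18 and Rpsa), and 9.72% of all genes tested did so. It lay at least 0.2 above both for 7 members (12.1%; Rpl23a, Rpl26, Rpl37a, Rps19, Rps21, Rps27l and Rps29), against 10.4% of all genes. The limit of 0.2 and the genes named by it were chosen after the values were seen. Among the latter, Rps19, a gene mutated in Diamond-Blackfan anaemia, read 7.88 on wild type 1 and 7.97, 7.38 and 7.60 on the knockout arrays. Its genotypes overlapped through knockout 1 alone.

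Knockout 3 stood apart least often, at least 0.2 below both other knockout arrays for 2 members (3.45%; Rpl3l and Rps13) and above them for 5 (8.62%), where the shares of all genes were 14.1% and 14.2%. The difference from all genes was not tested.

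Rpl3l, the muscle paralog, had the highest log2 fold change of the tested members. It read 8.67 on wild type 1 and 9.04, 9.11 and 8.43 on knockout 1, 2 and 3. Knockout 1 and 2 were above wild type 1 and knockout 3 below it, so the genotypes overlapped. The knockout mean was 8.86 ± 0.37 (SD, n = 3) and the log2 fold change 0.19 (SE 0.29, limma adjusted p = 0.992), smaller than the spread between the knockout arrays.

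Set against the median of the other 35 tested large subunit genes, Rpl3l stood 0.59 higher on knockout 1, 0.64 higher on knockout 2 and -0.03 from it on knockout 3, each as a difference from wild type 1. None of the 35 stood above Rpl3l on knockout 1 or knockout 2, and 23 did on knockout 3. Over the 3 knockout arrays the difference was 0.417. It was 0.28 without knockout 1, 0.285 without knockout 2 and 0.63 without knockout 3. Rpl3, of which Rpl3l is the paralog, had no probe set of its own. The 7 probe sets listing Rpl3 with other symbols read 9.34 to 10.26 in these hearts. They had log2 fold changes of -0.56 to -0.41 and were not assigned to a gene.

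Xist, the RNA of the inactive X chromosome, read 4.13 on wild type 1, 9.18 and 9.52 on knockout 1 and 2, and 3.20 on knockout 3, so the arrays on which Rpl3l read high are also those on which Xist was high. With Xist as a covariate, which leaves knockout 3 alone to be set against wild type 1, the log2 fold change of Rpl3l was -0.24 and its difference from the other large subunit genes -0.03. The family median difference from wild type 1 was -0.195, -0.19 and -0.175 on knockout 1, 2 and 3. For the brightest 25% of genes tested it was 0.03, 0.05 and -0.06. Whether what Xist marks has a part in any of these values was not tested.

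The other members with a symbol ending in l are paralogs or retrogenes. Rps27l, a paralog of Rps27 that p53 is known to induce, read 8.74 on wild type 1 and 8.70, 8.27 and 8.35 on the knockout arrays, a log2 fold change of -0.30. Rpl32l read 6.84 against 6.50, 6.49 and 6.85, and Rps4l, which RefSeq lists as a transcribed pseudogene, read 7.26 against 7.09, 7.40 and 7.14. Only Rps27l was below wild type 1 on all 3 knockout arrays.

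Rpl10l, a retrogene of Rpl10 known from the testis, read 4.88 against 5.14, 4.60 and 5.34, close to the lower limit for testing of 4.71. Rpl39l, also known from the testis, read 3.35 on wild type 1 and 3.43, 3.32 and 3.35 on the knockout arrays and was not tested. Without the 6 members whose symbol ends in l, the median of the remaining 53 was -0.197, and 38 of them lay below wild type 1 on all knockout arrays.

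At the upper end of the family, the mean was above wild type 1 for 5 members, Rpl3l, Rpl10l, Rps29, Rps20 and Rps21. Rps20, which lies near the messenger RNA in the head of the small subunit, read 11.07 on wild type 1 and 11.27, 11.00 and 11.19 on the knockout arrays, a log2 fold change of 0.08. Rps29 read 10.63 against 10.91, 10.68 and 10.58, with a log2 fold change of 0.09. Rps21 read 9.34 against 9.62, 9.21 and 9.26, with a log2 fold change of 0.02. All of them overlapped between genotypes.

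Rpl8, which lies near the peptidyl transferase centre, read 11.23 on wild type 1 and 11.14, 11.45 and 11.04 on the knockout arrays. Rps13 read 8.88 against 8.92, 8.97 and 8.71. With log2 fold changes of -0.02 and -0.01, both differences were smaller than the spread between knockout arrays, and both turned positive after renewed quantile normalization or centring on all genes.

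Different probe sets of a gene mostly gave the same difference. The 59 genes had 215 single-symbol probe sets, 39 genes had more than 1, and the median range of log2 fold changes within such a gene was 0.057. Of the 215 probe sets, 165 had all knockout arrays below wild type 1 and 4 had all above. Among all genes tested 24.6% and 23.9% did so, and shares over all probe sets were not computed. Some sets of a gene, as in Rps12 and Rpl41, had identical values on all 4 arrays, so the 215 are not separate measurements. The range exceeded 0.25 in Rps2 and Rplp0. Probe sets of 1 gene can share probes or sequence, and ribosomal protein genes have many processed pseudogenes, so a level can hold signal from near-identical copies.

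In Rps2, whose protein lies at the entry of the messenger RNA, the brightest set read 12.01 on wild type 1 and 11.74, 12.07 and 12.11 on the knockout arrays. A second set read 11.99 against 11.67, 12.02 and 12.01. The remaining set read 11.67 against 12.09, 12.03 and 11.96, above wild type 1 on every knockout array. The sets of Rps2 therefore do not give one direction, with log2 fold changes from -0.09 to 0.357. In RefSeq Rps2 and Rpl3l are close neighbours, with Ndufb10 between them. Of Rplp0, the other such gene, a dimmer set read 9.04 on wild type 1 and 8.58, 8.56 and 8.40 on the knockout arrays, a log2 fold change of -0.53 against -0.25 for the brightest set.

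A further 233 probe sets list several symbols, at least 1 of them of this family, and were not assigned to a gene. Their median log2 fold change was -0.247, 164 had all knockout arrays below wild type 1, and 2 had all above. The shares of all genes tested were 24.6% and 23.9%. RefSeq holds 81 protein-coding genes that follow the symbol rule. Of these, 58 are members here and 23, among them Rpl3, Rpl11, Rpl15, Rpl17, Rpl31, Rps16 and Rps23, have no single-symbol probe set and were not counted as members.

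**Figure D4:**
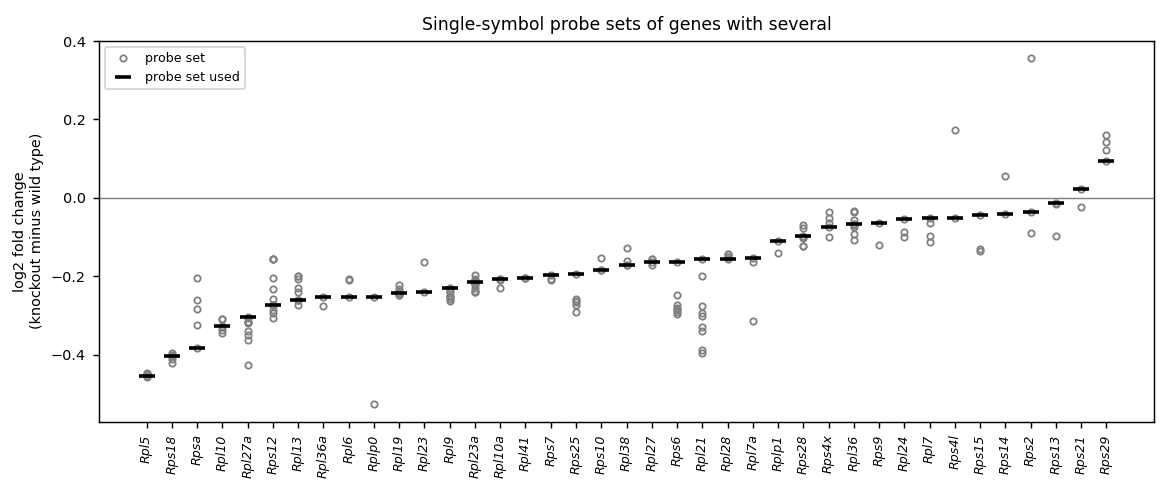
Log2 fold change, knockout minus wild type (vertical axis), of every single-symbol probe set (open circles) of the 39 genes with more than 1, with the set used for the gene as a black bar. Most sets of a gene lie together, and Rps2 and Rplp0 have the widest ranges.

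Genes that make or regulate ribosomes were read from lists chosen by function. Of 71 tested ribosome biogenesis genes, 50 (70.4%) had all knockout arrays below wild type 1 and 0 had all above, against 24.6% and 23.9% of all genes tested, with a median log2 fold change of -0.30. At an limma unadjusted p of 0.05, 12 were lower and 0 higher, where 4.05% and 1.68% of all genes were, and 0 passed the adjusted threshold. The median difference from wild type 1 was -0.26 on knockout 1, -0.22 on knockout 2 and -0.42 on knockout 3, so this list read lowest on knockout 3, where the ribosomal protein median was -0.175.

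Nop16, a nucleolar protein of large subunit assembly, read 9.58 on wild type 1 and 8.63, 8.85 and 8.77 on the knockout arrays (log2 fold change -0.83, limma adjusted p = 0.411). Nhp2, of the particles that make pseudouridine in ribosomal RNA, read 8.96 against 8.02, 8.29 and 8.18 (-0.80, limma adjusted p = 0.466). In both the knockout arrays lay well below wild type 1 without overlap. Of the genes with a positive log2 fold change, those of smallest p were Taf1a (0.33), of the RNA polymerase I factor SL1, and Nop10 (0.15), a partner of Nhp2.

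Among the regulators in the mTORC1, S6 kinase, LARP1 and Myc list, Myc, the transcription factor that drives ribosome production, read 8.03 on wild type 1 and 6.95, 7.0 and 7.15 on the knockout arrays. The log2 fold change was -0.997 (SE 0.18), with an limma unadjusted p of 0.00087 and an adjusted p of 0.333. Mxd4, which competes with Myc for its partner Max, had a log2 fold change of 0.39. The 21 tested genes of this list had a median of 0.01, with 4 (19.0%) below and 4 (19.0%) above wild type 1 on all knockout arrays, against 24.6% and 23.9% of all genes, so Myc stood apart from its list and no regulator passed the adjusted threshold.

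Of 33 tested initiation factors, 12 (36.4%) had all knockout arrays below and 3 (9.09%) above, against 24.6% and 23.9% of all genes, with a median of -0.06. Eif1a, which helps the small subunit scan for the start codon, read 7.86 on wild type 1 and 6.80, 6.78 and 6.97 on the knockout arrays (log2 fold change -1.01, limma adjusted p = 0.333). Eif4a1, the helicase that unwinds the messenger RNA leader, read 11.87 against 11.11, 11.28 and 11.42 (-0.60, limma adjusted p = 0.672). These 2 of 33 were lower at an unadjusted p of 0.05 and 0 were higher, close to the shares of all genes (4.05% and 1.68%).

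A list of 11 elongation factors and related genes, among them the release factors Etf1 and Gspt1 and the kinase Eef2k, had a median of -0.253. All knockout arrays lay below wild type 1 for 6 of the 11 (54.5%; Eef1a1, Eef1b2, Eef1e1, Eif5a2, Etf1 and Gspt1) and above it for 0. The shares of all genes tested were 24.6% and 23.9%. Eef1e1 (-0.79), a partner of aminoacyl-tRNA synthetases, and Eef1b2 (-0.43) were lower at a limma unadjusted p of 0.05, as were 4.05% of all genes. Of 17 further messenger RNAs known to carry the TOP motif, 13 also stand in another of these lists. In this TOP list 7 (41.2%) were below on all knockout arrays and 2 (11.8%) above, against 24.6% and 23.9% of all genes. Its median was -0.043. Eef2, the translocation factor and a TOP messenger RNA, had a log2 fold change of 0.02. Within the family itself the median was -0.178 for the 16 members with a pyrimidine run at the start and -0.23 for the 30 tested members with a promoter window and no such run. In the wider window the order was the other way, with -0.223 for 27 members with a run and -0.197 for 19 without. The 6 tested genes related to the family that the symbol rule leaves out (Rpl7l1, Fau, Rps3a1, Rsl24d1, Rps19bp1 and Rsl1d1) had a median of -0.142. Of these, 3 (50%) were below and 0 above on all knockout arrays, against 24.6% and 23.9% of all genes.

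**Figure D5:**
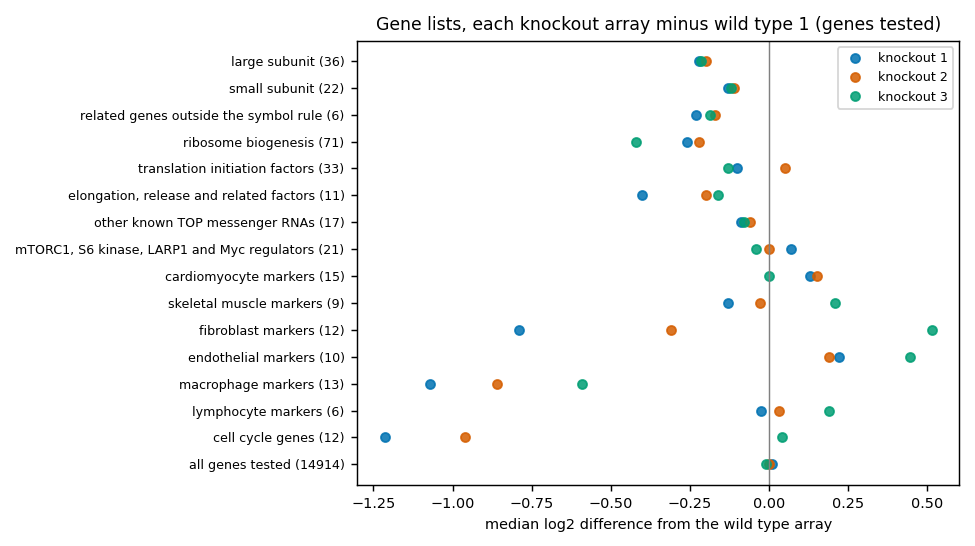
Median log2 difference from wild type 1 (horizontal axis) on knockout 1, 2 and 3 for the tested genes of each list (number in brackets). The 3 medians of the large and small subunit lie together, while those of fibroblast markers run from -0.79 to 0.515 and those of cell cycle genes from -1.215 to 0.04.

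Fbxo32 itself read 7.54 on wild type 1 and 5.65, 5.61 and 5.56 on the knockout arrays, as the labels imply. Its log2 fold change was -1.93, and even this difference did not pass the adjusted threshold. Array medians over all genes tested were 6.84 to 6.87. The 15 cardiomyocyte markers averaged 12.81 to 12.97 per array, as the heart label implies, and had all knockout arrays above wild type 1 in 7 cases and below in 1. The shares of all genes tested were 24.6% all below, 23.9% all above and 4.05% lower at an unadjusted p of 0.05. Macrophage markers had a median log2 fold change of -0.957, with 11 of 13 below wild type 1 on all knockout arrays, 8 of 13 lower at an limma unadjusted p of 0.05 and an average level of 8.39 on wild type 1 against 7.41, 7.40 and 7.85. Endothelial markers had a median of 0.257, with 5 of 10 above on all knockout arrays. The 9 tested skeletal muscle markers had a median of -0.02, the 6 tested lymphocyte markers 0.098 and the 2 tested erythroid markers -0.028. Fibroblast markers (12 genes) had medians of -0.79, -0.31 and 0.515 on knockout 1, 2 and 3, and cell cycle genes (12 tested) -1.215, -0.96 and 0.04. The ribosomal protein medians on the same arrays were -0.195, -0.19 and -0.175. In whole hearts fewer cells of a type and less RNA per cell cannot be told apart, and the part of macrophages or other cells in the ribosomal protein values was not tested.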

How the data were processed

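The deposited values are log2 levels per probe set, which the authors obtained by RMA in Affymetrix Expression Console, as named in the submitters' processing notes. RMA subtracts background, normalizes arrays by quantiles and summarises probes. For versions and array build, the sources used here give nothing, and scanner intensities were not analysed here. A difference shared by most genes would be lost in that normalization.

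Of 35556 probe sets, 21789 named 1 gene, 1621 several and 12146 were unlisted in the platform annotation. Each gene took its single-symbol probe set with the highest mean over the 4 arrays. Genes under the 25th percentile (4.71) were left out as dim. The test of genotype was limma's (3.58.1, R 4.3.3; lmFit and eBayes, two-sided), as knockout minus wild type. P-values were adjusted by Benjamini-Hochberg over 14914 genes, on 2 residual and 5.04 prior degrees of freedom. The script was tested on simulated data. Precision is limited by there being 4 arrays.

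The members and lists were chosen with earlier results of these data known. Genes named by rule were Rpl3l, Rps6, Rpsa and the stalk genes, members past an unadjusted p of 0.05, the 8 lowest and 8 highest, symbols ending in l, dim members and those nearest the filter, and the 2 genes of smallest p in each direction per pathway list. The motifs, the limits on gaps between arrays, and the genes named by them were chosen after the data were seen. Alternatives were other scalings, filters, probe set rules, variance models, a covariate for Xist and leaving out each knockout array. Promoters are RefSeq's (GRCm38.p6). No sequence of a protein was used here.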

Additional observations from a re-analysis of the deposited data

How the results depend on the processing

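No paired analysis was possible because the labels number hearts within a genotype and pair none of them. The planned difference of Rpl3l from Rpl3 was not run, since Rpl3 has no single-symbol probe set, and counts of arrays on one side have no value with the Xist covariate. The causes of the changes given here were not tested. The number of genes past the adjusted threshold by limma (1, Hmox1) was 0 after renewed quantile normalization, 6 with arrays centred on the median of the brightest genes, 0 without a filter, 2 with a filter at the 50th percentile, 7 with the lowest probe set of each gene, 7 with a trended prior variance, 9 with a robust one, 0 with the Xist covariate, and 0 without any 1 of the knockout arrays. The named members did not pass it in any of 297 alternative values. At an unadjusted p, 2 members were lower with the lowest probe set, and 1 to 2 when an array was left out, 2 of them without knockout 3.

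The family median (-0.195) stayed below 0 in every alternative run. It was -0.132 after renewed quantile normalization, -0.165 centred on all genes, -0.178 centred on the brightest, -0.212 with the mean of probe sets, -0.207 with the lowest, -0.175 with the Xist covariate, which rests on wild type 1 against knockout 3, and -0.19 to -0.165 without an array. Alternatives added after seeing the data gave -0.22 over all single-symbol probe sets and -0.247 over those with several symbols. After renewed quantile normalization 31 members lay below wild type 1 on all knockout arrays, where 23.3% of all genes did, and centred on all genes 35, where 21.2% did. Members above on all arrays (0) were 1 after quantile normalization, 1 when centred on the brightest, 2 with the lowest probe set and 2 to 3 without an array, when only 2 knockout arrays had to lie above. The large minus small subunit difference (-0.107) was -0.123 after quantile normalization, -0.102 with the mean of probe sets, -0.085 with the lowest, -0.095 with the Xist covariate and -0.095 to -0.0875 without an array.

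The log2 fold changes of 12 single genes changed sign, among them Rpl3l (0.19), Rpl32l (-0.23) and Nop10 (0.15), which were not near 0. With the Xist covariate Rpl3l was -0.24 and its difference from the other large subunit genes -0.03, Rps2 was 0.10, Rps21 -0.08, Rps29 -0.05, Rpl32l 0.01, Nop10 -0.01, Eef1a2 -0.07 and Eef2 -0.05. With the mean of probe sets Rps2 was 0.077 and Rps4l 0.062, and with the lowest Rps21 was -0.023 and Rps4l 0.173. Rpl8 was 0.0504 after quantile normalization and 0.01 centred on all genes. Rps13 was 0.0067 after quantile normalization, 0.017 centred on all genes and 0.0033 centred on the brightest. Without an array Rps2 ran from -0.105 to 0.08, Rpl8 from -0.14 to 0.065, Rps13 from -0.065 to 0.065, Rps21 from -0.105 to 0.10, Rpl10l from -0.01 to 0.36, Rps4l from -0.145 to 0.01 and Eef2 from -0.035 to 0.05.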
